A study of Homo sapiens with 8 samples.

Results

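The genes described here are 58 neighbouring genes of the long arm of chromosome 15, from TRPM1 in band 15q13 to TYRO3 in band 15q15, listed because they had shown a run of lower RNA levels in TET-depleted cells than in control cells. Of the 58, 56 had a transcript cluster (a group of array probes summarised to 1 value) annotated to that gene symbol alone, out of 18417 genes measured in this way. KATNBL1 was covered only by 2 clusters shared with KATNBL1P6, and PAK6 only by 1 cluster shared with the BUB1B-PAK6 read-through gene, so neither was given a value. The cells were NCCIT, an embryonic carcinoma line derived from a human germ cell tumour. They were transfected with a pool of small interfering RNAs (siRNA) against TET1 (siTET1), TET2 (siTET2) or TET3 (siTET3), or with a non-targeting siRNA (siNTC), with no other treatment or genetic change named in the labels. Each of the 4 groups had 2 Affymetrix Human Gene 1.0 ST arrays, 8 in all, and each array received cDNA made from 250 ng of total RNA. The depletions were transient and partial, and all samples came from the same line.

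TET enzymes oxidise 5-methylcytosine in DNA to 5-hydroxymethylcytosine, an early step in the removal of methylation. Genes that neighbour each other on a chromosome need not share a function, but they can share a divergent promoter or a chromatin domain. The stretch from TRPM1 to CHRNA7, with KLF13 and OTUD7A between them, is known as the site of a recurrent microdeletion in neurodevelopmental disease. Towards TYRO3 the interval holds several genes of cell division, among them BUB1B, KNL1, OIP5 and NUSAP1.

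The siRNA targets were lower on the arrays that the labels assign to them. TET1 was at log2 9.91 and 9.87 after siTET1 and at 10.62 and 10.53 with siNTC, or 62.3% of control (adjusted p = 2.9e-07, limma). TET2 was at 6.95 and 6.92 after siTET2 and at 7.71 and 7.91 with siNTC, or 54.4% (adjusted p = 9.74e-06, limma). TET3 was at 6.23 and 6.66 after siTET3 and at 7.74 and 7.30 with siNTC, or 47.4% (adjusted p = 7.52e-05, limma). The TET genes that a pool did not target were not all at control level. TET1 was at 10.28 and 10.27 after siTET2 and at 10.93 and 11.05 after siTET3. TET2 was at 7.61 and 7.64 after siTET1 and at 7.22 and 7.48 after siTET3. TET3 was at 7.25 and 7.12 after siTET1 and at 7.60 and 7.50 after siTET2. No test is given for these values. Array medians lay between log2 6.22 and 6.27. Correlations over all genes were 0.998 to 0.999 between replicates, 0.995 to 0.998 between depletions and 0.989 to 0.991 between siNTC and depletion arrays. Olfactory receptor genes, of which 341 were measured, served to set background at log2 5.21 (the 95th percentile of their mean levels), and 48 of the 56 members had a mean above it, against 69.2% of all genes. TRPM1, FMN1, CHRM5, NUTM1, ACTC1, FSIP1, PLCB2 and DLL4 did not.

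The labelled cell type carried those of its listed pluripotency markers that were measured. POU5F1, NANOG and TDGF1 had no cluster annotated to their symbol alone and were not read. Of 8 listed pluripotency markers 5 were measured (SOX2, LIN28A, DPPA4, DNMT3B and L1TD1) and all were above background, and their summed level was log2 14.32 to 14.35 with siNTC and 14.34 to 14.46 in the depletions. Of 5 trophoblast markers, HAND1 and CDX2 were above background, and the list summed to 8.01 to 8.07 with siNTC and 7.62 to 7.75 in the depletions. MAP2 was the one of 4 neural markers above background, with a list sum of 9.11 to 9.12 in siNTC and 8.10 to 8.76 in the depletions. The 5 mesenchymal markers (COL1A1 and COL3A1 above background) summed to 7.53 to 7.59 and 7.47 to 7.69, and the 5 endoderm markers (GATA4 and GATA6 above background) to 7.43 to 7.49 and 7.44 to 7.63, in siNTC and the depletions respectively. The trophoblast and neural sums were thus lower in the depletions, but rested mainly on HAND1 (-0.88) and MAP2 (-0.83, log2, mean of the depletions). CDX2, the other trophoblast marker above background, was at -0.02. Median changes were -0.02 over the trophoblast list and -0.13 over the neural list. The part of these markers in the members' values was not tested.

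Promoter sequences are shown for the member with the largest decrease and for member pairs that start back to back, because these are the places where neighbouring members share regulatory DNA. All are RefSeq windows on GRCh38.p14, written 5′ to 3′ on the plus strand in lower case, with motif matches in capitals. CHAC1, which encodes a glutathione-degrading enzyme induced by amino acid stress, is read from the plus strand, and its window (chr15:40953221-40953520) runs from 250 bases before the start to 50 after it. Capitals mark 3 matches to CCAAT, the box bound by NF-Y (CCAAT or ATTGG, depending on the strand), and 1 match to TGATGNAA, the composite element of ATF4 and C/EBP factors.
CHAC1 promoter: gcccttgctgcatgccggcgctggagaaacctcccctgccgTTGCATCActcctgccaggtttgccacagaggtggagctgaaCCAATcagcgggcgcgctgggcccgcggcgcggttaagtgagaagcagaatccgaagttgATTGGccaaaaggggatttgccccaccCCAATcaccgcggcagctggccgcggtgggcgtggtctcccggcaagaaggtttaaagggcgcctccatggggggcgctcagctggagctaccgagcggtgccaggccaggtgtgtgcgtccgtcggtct
OIP5 and NUSAP1 start from opposite strands, and their windows overlapped by 211 bases (chr15:41332631-41332841), with 14 CG dinucleotides and 3 CCAAT matches in capitals.
OIP5 and NUSAP1 shared promoter: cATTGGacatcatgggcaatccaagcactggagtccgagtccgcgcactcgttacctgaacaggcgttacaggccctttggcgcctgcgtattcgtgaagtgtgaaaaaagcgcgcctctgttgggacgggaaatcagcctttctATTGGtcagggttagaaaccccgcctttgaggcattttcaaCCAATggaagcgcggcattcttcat
EMC7 and PGBD4 are arranged in the same way, and their windows overlapped by 280 bases (chr15:34101833-34102112), with 20 CG dinucleotides and 1 CCAAT match in capitals.
EMC7 and PGBD4 shared promoter: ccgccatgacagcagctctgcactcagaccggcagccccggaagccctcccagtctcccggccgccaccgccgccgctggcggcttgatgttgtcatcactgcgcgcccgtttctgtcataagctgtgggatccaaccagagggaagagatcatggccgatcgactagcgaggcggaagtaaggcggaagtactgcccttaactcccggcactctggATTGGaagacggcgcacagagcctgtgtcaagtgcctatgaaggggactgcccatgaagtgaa

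Of the 56 members, 51 had a promoter window by symbol. The median window held 26 CG dinucleotides, against 23 in the windows of 14239 measured genes and 14 in all 35116 windows. The CCAAT motif was in 22 member windows (43.1%), against 36.3% of measured genes and 34.6% of all windows. TGATGNAA was in 1 member window, that of CHAC1 (1.96%, against 2.54% and 3.62%). TTTGAA on either strand, the core of the cell cycle homology element, was in 5 windows (9.8%, against 11.9% and 15.2%), and TATAAA in 4 (7.84%, against 9% and 11.5%). Across the 51 members, the number of CG dinucleotides and the change against siNTC had a Spearman correlation of -0.12, given as a description since the genes share the same arrays. NUTM1 and NOP10 also start back to back, with windows that overlapped by 278 bases.

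Most members were lower in the depleted cells than in siNTC. Taken on each array as the median over the 56 members of the difference from the siNTC mean, the run stood at -0.35 and -0.34 on the siTET1 arrays, at -0.42 and -0.43 on the siTET2 arrays and at -0.40 and -0.37 on the siTET3 arrays (log2). The siNTC arrays, whose own mean is the reference of this scale, stood at 0.03 and -0.03. The arrays of the 3 depletions lay apart from the controls and close to each other, with a spread between replicates of 0.023 (SD). Since the members were listed for a shared decrease on these same arrays, this is a description. Medians over all genes were between -0.043 and -0.018 on the depletion arrays, and 47 to 52 of the 56 members were below their siNTC mean on each of them. In RNA from a whole culture, fewer cells of a type and less RNA per cell cannot be told apart.

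**Figure D1:**
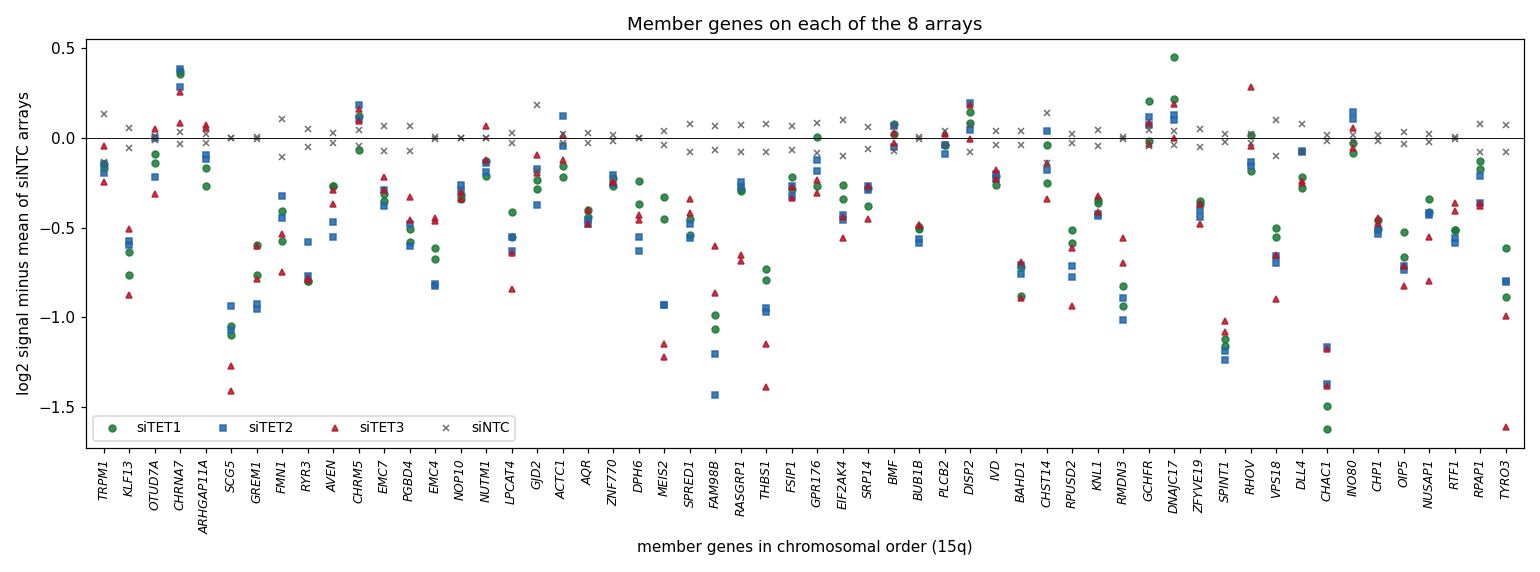
Each point is 1 array, plotted as the log2 signal of a member gene minus the mean of its 2 siNTC arrays, with the 56 members in chromosomal order along 15q. Most points of the 6 depletion arrays lie below 0, down to CHAC1, while the siNTC arrays lie close to 0 and CHRNA7 is the member with all 6 depletion arrays above both siNTC arrays.

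The decrease against siNTC is what chose these genes, so its values are a description and carry no test. The median member change was -0.33 for siTET1, -0.42 for siTET2 and -0.38 for siTET3 (log2, n = 2 arrays per group), and the 3 comparisons share the siNTC arrays. For the mean of the 3 depletions it was -0.40, or 75.6% of siNTC, beside a median of -0.03 over all genes. Members ranged from -1.37 to 0.29. Of the 56, 4 were lower by more than 1, 15 lay between -1 and -0.5, 20 between -0.5 and -0.2, 10 between -0.2 and 0, and 7 at or above 0. The SD of the changes over members was 0.36 and the median standard error of a change 0.071, so members differed among themselves by more than the error of measurement. All 6 depletion arrays were below both siNTC arrays for 38 of the 56 members, beside 24.5% of all genes, and above both for 1, beside 16% of all genes. At an adjusted p under 0.05 in limma, 39 members were lower and 1 higher, beside 24.2% and 16.5% of all genes, a count that the choice of the genes fixes.

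The lower values varied from gene to gene along the interval. The median change was -0.31 over the 19 members from TRPM1 to ACTC1, -0.40 over the 19 from AQR to CHST14 and -0.49 over the 18 from RPUSD2 to TYRO3. Above background were 14, 17 and 17 of them, so genes without a readable change weigh most on the first median. The order of these medians was therefore not read as a trend along the interval. In sliding windows of 9 consecutive genes above background, listed or not, the lowest median was -0.60 between SCG5 and LPCAT4 and the highest -0.04 between GCHFR and INO80. The longest unbroken stretch of members whose depletion arrays all lay below both siNTC arrays was 9 genes, AQR to FSIP1. Its last gene, FSIP1, was above background on 1 siNTC array alone. Unlisted genes were passed over in this count. Of those between DPH6 and MEIS2, CDIN1 (-0.12) was below both siNTC arrays on all 6 depletion arrays and CSNK1A1P1 (0.13) was not. Members near 0 stood between members with large decreases: CHAC1 at -1.37 is followed by INO80 at 0.03, and SPINT1 at -1.13 by RHOV at -0.04.

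CHAC1 had the largest decrease. It was at log2 6.37 and 6.50 after siTET1, 6.62 and 6.83 after siTET2, 6.82 and 6.61 after siTET3, and 8.01 and 7.98 with siNTC. Its change of -1.37 ± 0.082 (SE) left 38.6% of the control signal, with no overlap between the depletion arrays and siNTC. SCG5, which encodes the 7B2 chaperone of prohormone convertase, was at 7.47 and 7.42, 7.45 and 7.58, 7.11 and 7.25 in siTET1, siTET2 and siTET3, and at 8.52 on both siNTC arrays. It was at 45.4% of control. SPINT1, a Kunitz-type inhibitor of cell surface serine proteases, was at 7.66 and 7.62, 7.59 and 7.54, 7.76 and 7.70 in the same order, and at 8.80 and 8.76 with siNTC. Its 6 depletion values spanned a narrow range and left 45.7% of control.

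FAM98B, a component of the tRNA ligase complex, was at 7.51 and 7.59 after siTET1, 7.37 and 7.14 after siTET2, 7.71 and 7.97 after siTET3, and 8.64 and 8.51 with siNTC. THBS1, the matricellular protein thrombospondin, was at 7.64 and 7.70, 7.46 and 7.48, 7.04 and 7.28, against 8.51 and 8.35. TYRO3, a receptor tyrosine kinase of the TAM family, was at 7.35 and 7.62, 7.44 and 7.43, 6.62 and 7.24, against 8.31 and 8.16. In these 3 genes the depletions were less alike than in SPINT1, with siTET3 highest for FAM98B and lowest for THBS1 and TYRO3. The remaining signal was 49.1%, 50.1% and 51.6% of control. In TYRO3 the 2 siTET3 arrays differed from each other by more than siTET1 and siTET2 did.

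At the other end of the range was CHRNA7, the α7 subunit of the nicotinic acetylcholine receptor. It was at 6.83 and 6.81 after siTET1, 6.84 and 6.74 after siTET2, 6.71 and 6.54 after siTET3, and 6.42 and 6.49 with siNTC, a change of 0.29 ± 0.075. CHRNA7 has a near-identical partial copy, CHRFAM7A, on the same arm, so its probes may read both genes. DNAJC17, a J-domain protein linked to splicing, was at 6.34 and 6.57, 6.22 and 6.25, 6.12 and 6.31, against 6.16 and 6.08. DISP2, of the Dispatched family, was at 5.38 and 5.44, 5.49 and 5.34, 5.48 and 5.29, against 5.37 and 5.22. For DNAJC17, 1 siTET3 array lay between the siNTC arrays and the other 5 depletion arrays above them, with a change of 0.33 for siTET1, 0.11 for siTET2 and 0.09 for siTET3. For DISP2 the depletion and siNTC arrays overlapped.

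**Figure D2:**
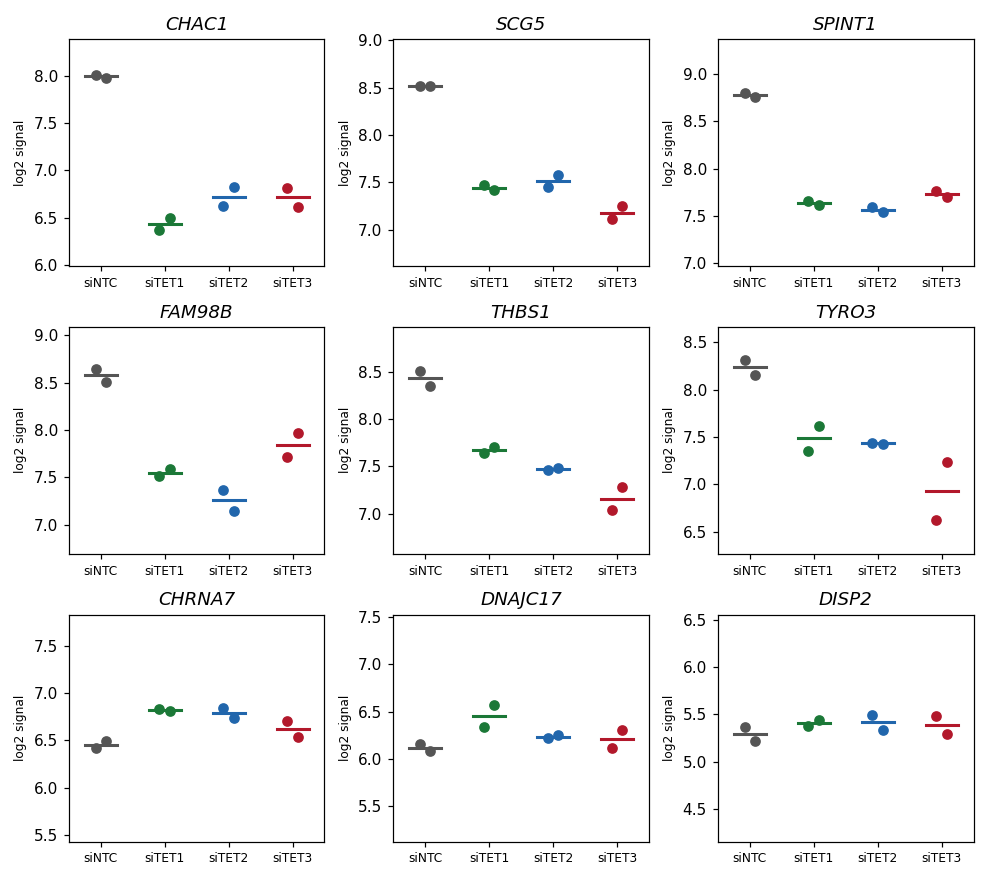
Log2 signal on each array (points) and the group mean (bars) for the 6 members with the largest decreases and, in the bottom row, the 3 with the highest changes. Every panel spans the same number of log2 units, so distances can be compared between panels, and the depletion points of the upper 6 genes lie below both siNTC points.

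Grouped by what the genes do, the members of membrane protein insertion and trafficking had the lowest median, -0.64 over 7 genes, all below 0. EMC4 and EMC7 are subunits of the ER membrane protein complex, which inserts transmembrane segments, and changed by -0.64 and -0.31. EMC4 was at 10.79 and 10.85, 10.64 and 10.65, 11 and 11.02 in siTET1, siTET2 and siTET3, against 11.47 and 11.46 in siNTC. EMC7 was at 10.36 and 10.32, 10.29 and 10.38, 10.38 and 10.45, against 10.74 and 10.60. Its promoter partner PGBD4, a domesticated piggyBac transposase, was at 6.49 and 6.56, 6.59 and 6.47, 6.61 and 6.74, against 7.14 and 7.0. Both genes of the shared promoter lay below control on all 6 depletion arrays, as did 38 of the 56 members, chosen for lower values, and 24.5% of all genes. RMDN3, a tether between ER and mitochondria, was at 8.94 and 9.05, 8.98 and 8.86, 9.32 and 9.18, against 9.88 and 9.87. VPS18, a core subunit of the HOPS tethering complex of lysosomes, was lower by 0.66 and CHP1, a calcium-binding cofactor of sodium/proton exchangers, by 0.49. ZFYVE19, a FYVE-domain protein of the abscission checkpoint, changed by -0.40, though its gene body overlaps that of DNAJC17, and which of the 2 RNAs each probe reads was not tested.

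The 5 mitotic members had a median of -0.49. OIP5, a subunit of the Mis18 complex that loads the centromeric histone, was at 9.45 and 9.59, 9.40 and 9.38, 9.29 and 9.40 in siTET1, siTET2 and siTET3, against 10.15 and 10.08 in siNTC. NUSAP1, a spindle protein that shares its promoter, was at 10.47 and 10.54, 10.46 and 10.45, 10.08 and 10.33, against 10.90 and 10.86. Both genes of this pair lay below control on every depletion array, by means of 0.70 and 0.49, as did 38 of the 56 members and 24.5% of all genes. BUB1B, a kinase-like protein of the spindle checkpoint, changed by -0.52 and KNL1, the kinetochore scaffold that recruits it, by -0.39. ARHGAP11A, a GTPase-activating protein of dividing cells, was at 9.81 and 9.71, 9.88 and 9.86, 10.05 and 10.03, against 10.00 and 9.95. Its siTET1 and siTET2 arrays were thus below control and its siTET3 arrays above, and it has a near-identical copy, ARHGAP11B, that may share its probes.

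Members of transcription and chromatin also had a median of -0.49, over 7 genes. MEIS2, a TALE homeobox factor, was at 7.02 and 7.14 after siTET1, 6.54 and 6.54 after siTET2, 6.25 and 6.32 after siTET3, and 7.51 and 7.43 with siNTC, so that its 4 groups did not overlap. BAHD1, a heterochromatin protein, changed by -0.77, and KLF13, a zinc finger factor, by -0.66. A second, dimmer KLF13 cluster lay below background on all arrays and carried no such difference. RTF1, linked to the PAF1 elongation complex, changed by -0.49, RPAP1, which binds RNA polymerase II, by -0.27, and the zinc finger protein ZNF770 by -0.24. INO80, the ATPase of the chromatin remodeller of that name, was at 0.03 ± 0.040, so the group was not uniformly lower.

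For RNA and protein synthesis the median was -0.43 over 8 genes. NOP10, a protein of H/ACA ribonucleoproteins, was at 11.33 and 11.31, 11.36 and 11.39, 11.31 and 11.35 in siTET1, siTET2 and siTET3, against 11.65 on both siNTC arrays. Its promoter partner NUTM1, a testis gene, was below background throughout (4.16 and 4.08, 4.15 and 4.10, 4.36 and 4.17, against 4.29 and 4.29), so no difference in that gene can be read. DPH6, an enzyme that completes the diphthamide residue of elongation factor 2, was at 10.07 and 9.94, 9.68 and 9.76, 9.88 and 9.85, against 10.31 on both siNTC arrays. The pseudouridine synthase RPUSD2 changed by -0.68, the spliceosomal helicase AQR by -0.44, and EIF2AK4, the GCN2 kinase that senses uncharged tRNA, by -0.42. SRP14, of the signal recognition particle, changed by -0.32. Of the 8 genes of this group, 7 lay below both siNTC arrays on each depletion array, beside 24.5% of all genes and as the choice of the members favours, and DNAJC17 did not.

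Signalling and secreted factors had a median of -0.43 over 10 measured genes. Beside SPINT1, THBS1 and TYRO3, the BMP antagonist GREM1 changed by -0.77 and SPRED1, an inhibitor of the Ras pathway, by -0.46. RASGRP1, which activates Ras, was at 5.98 and 5.99, 6.03 and 6.0, 5.59 and 5.62 in siTET1, siTET2 and siTET3, against 6.20 and 6.35 in siNTC. Its siTET3 arrays stood below those of the other 2 depletions. The orphan receptor GPR176 was above background on both siNTC arrays and on 2 of 6 depletion arrays, with a measured change of -0.19. The small GTPase RHOV, at -0.04, overlapped with control, and the Notch ligand DLL4 (-0.19) and the phospholipase PLCB2 (-0.02) were below background on all arrays.

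The channels, receptors and cytoskeletal genes had the median nearest 0 of all groups, -0.16 over 7 genes. Only 3 of the 7 were above background, so genes without a readable change weigh on this median and its rank. RYR3, a calcium release channel, changed by -0.76. The formin FMN1 was above background on 1 siNTC array and on no depletion array, with a measured change of -0.50, and the mean of its second cluster was below background as well. GJD2, a connexin, changed by -0.23 with arrays that overlapped those of siNTC, and TRPM1, CHRM5 and ACTC1 were below background. Of the 4 apoptosis and stress genes, the apoptosis inhibitor AVEN changed by -0.37, the deubiquitinase OTUD7A by -0.11 and the BH3-only protein BMF by 0.02. AVEN overlaps both RYR3 and CHRM5 on the chromosome. Of the metabolic enzymes, the lysophospholipid acyltransferase LPCAT4 was at 8.15 and 8.29, 8.15 and 8.07, 7.86 and 8.06, against 8.73 and 8.67. IVD, which acts in leucine breakdown, changed by -0.22, the dermatan sulfotransferase CHST14 by -0.15 and GCHFR, a regulator of GTP cyclohydrolase, by 0.07. FSIP1, a sperm fibrous sheath protein whose gene overlaps THBS1, was above background on 1 siNTC array alone.

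A further 16 measured genes lie within the interval but were not among the 58, and they show what the listing left out. Their median change was 0.00, and -0.09 over the 8 of them above background. Lower than siNTC were KNSTRN, a spindle and kinetochore protein (-0.58 ± 0.035), CCDC32 (-0.36 ± 0.068), NDUFAF1, an assembly factor of respiratory complex I (-0.28 ± 0.051), and CDIN1 (-0.12 ± 0.034), 4 of the 16 (beside 24.2% of all genes), all at an adjusted p under 0.05 in limma with all 6 depletion arrays below both siNTC arrays. All 4 were among the 8 above background, beside 30.4% of all genes above background that were lower. Higher was C15orf62 (0.32 ± 0.091). The 3 next highest, CSNK1A1P1 (0.13), LINC02694 (0.12) and PAK6-AS1 (0.09), did not pass the test. Counting listed and unlisted genes together, the interval held 72 measured genes.

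The decrease did not stop at the ends of the list. The 10 genes above background before TRPM1 had a median of -0.29, and the nearest 4 were MTMR10 at -0.34, FAN1 at -0.26, ARHGAP11B at 0.01 and LINC02249 at -0.53. The 10 after TYRO3 had a median of -0.26, and the nearest 4 were MGA at -0.23, MAPKBP1 at -0.16, EHD4 at -0.54 and VPS39 at -0.30. Of each set of 10, 7 were lower at an adjusted p under 0.05 in limma, beside 30.4% of all genes above background, and 3 did not pass. Over the 356 other genes of chromosome 15 above background the median was -0.30, beside -0.45 for the 48 members above background and -0.02 for all genes above background. Lower values against siNTC were thus shared by much of the chromosome, and the members, chosen for theirs, lay further down.

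**Figure D3:**
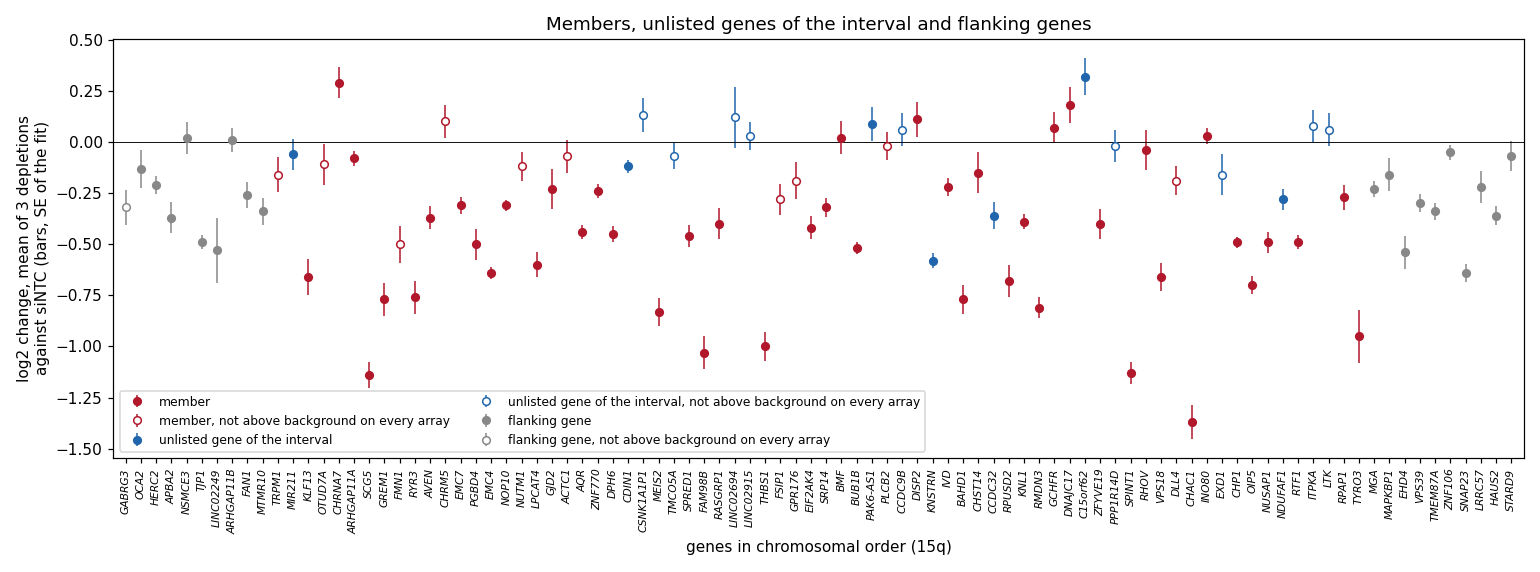
Log2 change against siNTC (mean of the 3 depletions, bars the standard error of the fit) in chromosomal order, for members (red), unlisted genes of the interval (blue) and the 10 genes above background on each side (grey), with open symbols for genes not above background on every array. Most of the flanking genes lie below 0 as well, and the unlisted genes scatter around 0 apart from KNSTRN, CCDC32 and NDUFAF1 below it and C15orf62 above.

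Differences between the depletions do not involve the siNTC arrays and were tested, although the same depletion arrays took part in the choice of the genes. Between siTET2 and siTET1, 3 members passed an adjusted p under 0.05 in limma (5.4% of 56, beside 6.46% of all genes), all 3 lower in siTET2 (beside 4.13% of all genes lower and 2.33% higher). Between siTET3 and siTET1, 11 passed (19.6%, beside 13.8% of all genes), 4 higher (beside 3.82%) and 7 lower (beside 9.94%) in siTET3. Between siTET3 and siTET2, 9 passed (16.1%, beside 12.2%), 5 higher (beside 4.94%) and 4 lower (beside 7.24%) in siTET3. Among genes above background the shares were 6.2%, 22.9% and 18.8% of the 48 members, beside 9.2%, 19.1% and 17.2% of all such genes, so the members' shares were near the background. Median member differences were -0.03, -0.02 and -0.02, beside -0.02, -0.00 and 0.01 over all genes. In 43 members no comparison passed, and in 33 the largest difference between any 2 depletions was under 0.2, beside a median standard error of 0.087.

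MEIS2 differed most. It was lower after siTET2 than after siTET1 by 0.54 ± 0.085 (adjusted p = 0.00278, limma) and lower after siTET3 than after siTET1 by 0.80 ± 0.085 (adjusted p = 7.86e-05, limma). The step from siTET2 to siTET3, -0.26, did not pass (adjusted p = 0.0677, limma). THBS1 was lower after siTET3 than after siTET1, by 0.50 ± 0.088 (adjusted p = 0.0023, limma). FAM98B went the other way and was higher after siTET3 than after siTET2, by 0.58 ± 0.098 (adjusted p = 0.00208, limma). Both FAM98B arrays of siTET3 stood above all 4 arrays of siTET1 and siTET2.

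EMC4 followed the order siTET2, siTET1, siTET3 from low to high, with no overlap between any 2 groups. Its level after siTET3 exceeded that after siTET2 by 0.36 ± 0.036 (adjusted p = 5.35e-05, limma) and that after siTET1 by 0.19 ± 0.036 (adjusted p = 0.00394, limma), and siTET2 was below siTET1 by 0.17 (adjusted p = 0.0146, limma). ARHGAP11A was higher after siTET3 than after siTET1, by 0.28 ± 0.047 (adjusted p = 0.00177, limma). These results on MEIS2, THBS1 and FAM98B, the difference of EMC4 between siTET3 and siTET2 and that of ARHGAP11A between siTET3 and siTET1 passed under every alternative processing and with each array left out. The other 17 differences that passed were each ended by at least 1 alternative. They include the differences of EMC4 between siTET1 and the other two depletions and those of THBS1 and ARHGAP11A between siTET3 and siTET2, and the rest concerned SCG5, LPCAT4, DPH6, RASGRP1, RMDN3, NUSAP1, RTF1 and TYRO3.

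**Figure D4:**
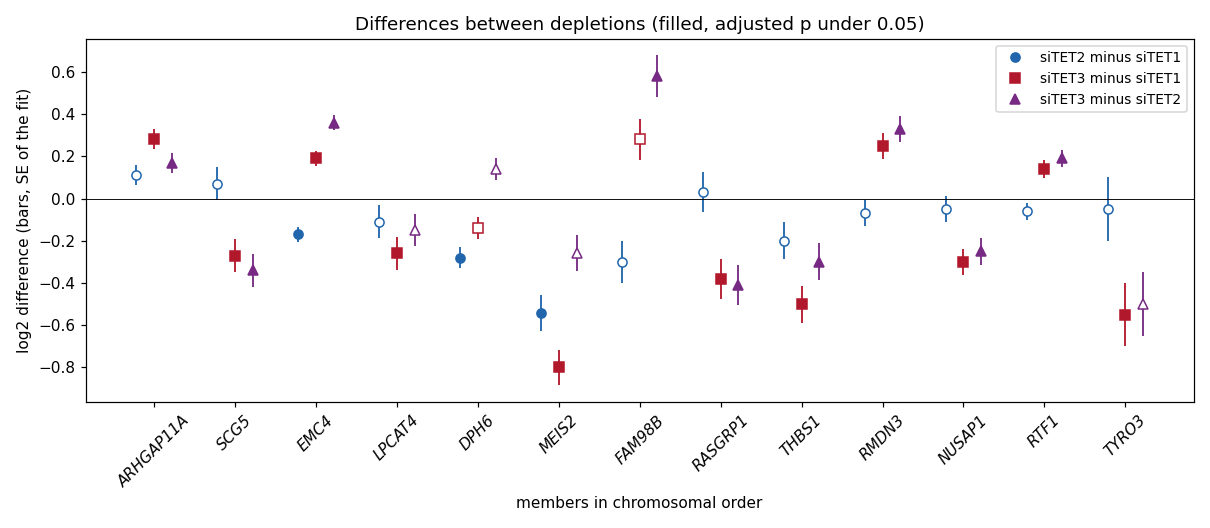
Log2 differences between depletions (bars, standard error of the fit) for the 13 members with at least 1 difference that passed, in chromosomal order, with filled symbols where the adjusted p was under 0.05. MEIS2 reaches -0.80 between siTET3 and siTET1 and FAM98B 0.58 between siTET3 and siTET2.

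Genes on other chromosomes that work with the members moved in both directions, with more of them lower than higher. Over 92 such partner genes the median change was -0.04, with 38 lower and 26 higher at an adjusted p under 0.05 in limma (41.3% and 28.3%, beside 24.2% and 16.5% of all genes) and 28 that did not pass. Above background were 91 of the 92. Of all 12749 genes above background, 3870 (30.4%) were lower and 2879 higher, and 52.9% passed in either direction, beside 69.6% of the partners. The partners' shares lower and in either direction were thus above those of all such genes. In the kinetochore and spindle checkpoint list, 10 of 18 were lower and 4 higher (median -0.17). SPC25, of the NDC80 complex, fell by 1.03 ± 0.042, HJURP, the chaperone of the centromeric histone, by 0.65 ± 0.037 and MIS18A, the partner of OIP5, by 0.49 ± 0.043. Of the 8 other ER membrane complex subunits, 3 were lower and 3 higher (median 0.01), with EMC9 at -0.49, EMC1 at -0.39 and EMC3 at 0.44.

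Of the 5 H/ACA partners of NOP10, SHQ1 (0.22) and DKC1 (0.13) were higher and the other 3 did not pass, with a median of 0.07. The signal recognition particle list had 3 of 7 higher and 2 lower (median -0.05), among them SRP68 (0.51), SRP54 (0.41) and SRP19 (0.38). In the INO80 complex, whose ATPase was at control level, 6 of 12 partners were lower and 2 higher (median -0.12), with TFPT at -0.81, MCRS1 at -0.48 and RUVBL2 at -0.47. Of the 3 PAF1 complex partners on other chromosomes, CTR9 was lower (-0.16). VPS11 (-0.71) and VPS33A (-0.22) of the HOPS complex were lower and VPS41 (0.48) higher. The partners encoded on chromosome 15 itself, LEO1 (-0.40) and SKIC8 (-0.45) of the PAF1 complex and VPS39 (-0.30) of HOPS, were all 3 lower.

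CHAC1 is a known target of the integrated stress response, whose kinase GCN2 is the member EIF2AK4. In that list 5 of 11 were lower and 2 higher, with a median of -0.03. CEBPB fell by 0.52, ASNS by 0.47 and TRIB3, above background on 5 of the 6 depletion arrays, by 0.46. The 2 higher genes were EIF2AK1 (0.40) and PPP1R15A (0.32). The leucine breakdown list had 6 of 9 lower and 2 higher (median -0.15), with BCKDHB at 0.45, BCAT2 at -0.30 and BCAT1 at -0.29. Notch ligands, receptors and targets leaned the other way, with 5 of 12 higher and 2 lower (median 0.16), among them DLL1 (0.40) and NOTCH3 (0.35). DLL3 was not above background on either siNTC array and was at least 1.07-fold higher in the depletions, against the background level. Of the TAM family around TYRO3, the receptor AXL (0.30) was higher and MERTK (-0.50) lower. The ligand GAS6, not above background on either siNTC array, was at least 1.26-fold higher in the depletions.

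**Figure D5:**
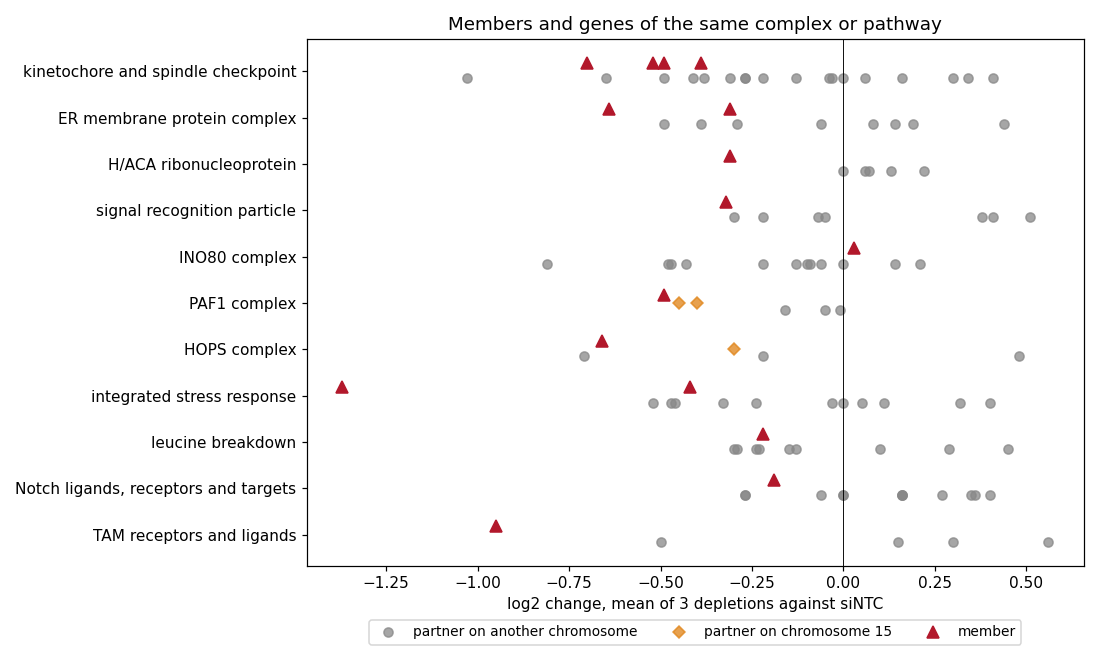
Log2 change against siNTC (mean of the 3 depletions) for members (red triangles), their partner genes on other chromosomes (grey circles) and partner genes on chromosome 15 (orange diamonds), by complex or pathway. Members and the chromosome 15 partners lie below 0 except INO80, whereas partners on other chromosomes, taken over all lists, lie on both sides of 0.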

How the data were processed

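RNA of NCCIT cells was measured on 8 Affymetrix Human Gene 1.0 ST arrays, 2 for each of siTET1, siTET2, siTET3 and siNTC. The authors deposited log2 values normalized between arrays, and the submitters' processing notes name Partek. Which version, background correction and summarization were used is not stated in the labels or methods. Depletion used pools of siRNAs per target with a non-targeting siRNA in parallel.

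Of 33297 clusters, 19460 had 1 gene symbol in the array's platform annotation, 1754 had several and 12083 none. For the 769 genes with several such clusters, the one with the highest mean was kept, which left 18417 genes. Gene order, promoter windows and strand came from RefSeq on GRCh38.p14. Precision is limited by how few arrays there are.

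All 8 arrays entered one linear model with 1 coefficient per group (lmFit, then eBayes allowing an intensity trend, in limma 3.58.1 under R 4.3.3), with 4 residual and 8.55 prior degrees of freedom. Tests were two-sided, adjusted by Benjamini-Hochberg over all genes of a comparison and called at an adjusted p under 0.05. Errors are standard errors of the fit with 2 arrays in each group. The labels do not tell whether replicates came from separate cultures, so p-values reflect only the spread among these arrays, which may be technical. The script was tested on simulated data. Values against siNTC chose the members and are given as a description, and the count of members past the threshold supports nothing. The members and the lists of roles, partners and markers were chosen with earlier results of these data known.

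Values on every array are given for the 6 members with the largest decreases among those above background in siNTC, the 3 with the highest changes, up to 12 with differences between depletions by size, and members that share a promoter window. Also named are up to 4 unlisted interval genes at each end of the range, the nearest 4 flanking genes on each side and up to 3 partner genes per list, by size among those called. For the integrated stress response the 2 higher genes are named as well. Listed partners with no cluster of their own symbol were not used here.

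As alternatives, values were quantile normalized, each comparison was fitted on its own 4 arrays, the intensity trend was dropped, genes below background were removed, the clusters of a gene were averaged, the replicate number entered as a block, and each array was left out in turn.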

Additional observations from a re-analysis of the deposited data

Results flagged for a closer look

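The effects of 2 depletions on a member differed by the limma test of the difference itself (adjusted p under 0.05) in 23 cases, each given here as a log2 difference, with the arrays whose omission ended the call. In 6 cases it held with every array left out and under every other alternative: MEIS2 in siTET2 against siTET1 (-0.54) and in siTET3 against siTET1 (-0.80), THBS1 in siTET3 against siTET1 (-0.50), ARHGAP11A in siTET3 against siTET1 (0.28), EMC4 in siTET3 against siTET2 (0.36) and FAM98B in siTET3 against siTET2 (0.58).

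In siTET2 against siTET1, DPH6 differed by -0.28, a call lost without siTET1 replicate 1 (-0.218) or siTET2 replicate 1 (-0.243). EMC4 differed by -0.17, a call lost without any 1 of the 4 arrays compared (-0.199 to -0.147).

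In siTET3 against siTET1, EMC4 differed by 0.19 and lost the call without siTET1 replicate 1 (0.165). SCG5 differed by -0.27 and lost it without siTET1 replicate 1 (-0.245), siTET1 replicate 2 (-0.295), siTET2 replicate 2 (-0.270) or siTET3 replicate 1 (-0.198). LPCAT4 differed by -0.26 and kept the call with siTET3 replicate 2 left out, but not without any other array (-0.324 to -0.157, the last without siTET3 replicate 1). RASGRP1 differed by -0.38 and lost it without siTET1 replicate 1 (-0.389), siTET1 replicate 2 (-0.375) or siTET3 replicate 1 (-0.367). RMDN3 differed by 0.25 and lost it without siTET1 replicate 1 (0.196) or siTET3 replicate 1 (0.182). NUSAP1 differed by -0.30 and lost it without siTET1 replicate 2 (-0.262), and stood at -0.179 without siTET3 replicate 1. RTF1 differed by 0.14 and lost it without any 1 of the 6 depletion arrays (0.114 to 0.157). TYRO3 differed by -0.55 and lost it without siTET1 replicate 2 (-0.418), siTET3 replicate 1 (-0.242) or either siTET2 array (-0.554), and stood at -0.865 without siTET3 replicate 2.

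In siTET3 against siTET2, RASGRP1 differed by -0.41 and RTF1 by 0.19, and both lost the call without siTET2 replicate 1 (-0.397 and 0.178) or siTET2 replicate 2 (-0.423 and 0.204). RMDN3 differed by 0.33 and lost it without siTET2 replicate 2 (0.267). SCG5 differed by -0.34 and lost it without siTET2 replicate 2 (-0.268) or siTET3 replicate 1 (-0.265). NUSAP1 differed by -0.25 and lost it without siTET2 replicate 1 (-0.247), siTET2 replicate 2 (-0.255) or siTET3 replicate 1 (-0.130). THBS1 differed by -0.30 and lost it without either siTET1 array (-0.305), siTET2 replicate 1 (-0.313), siTET2 replicate 2 (-0.296) or siTET3 replicate 1 (-0.183). ARHGAP11A differed by 0.17 and lost it without any 1 of the 4 arrays compared (0.158 to 0.184).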

How the results depend on the processing

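Of the 23 calls between depletions, 6 held under every alternative, 17 were lost under at least 1 and none changed sign. The members called numbered 3 between siTET2 and siTET1, and 5 after quantile normalization, 6 on the 4 arrays alone, 1 without the intensity trend and 5 among genes above background. Between siTET3 and siTET1 the 11 became 6 on the 4 arrays alone and 4 without the trend, and between siTET3 and siTET2 the 9 became 5 without the trend. With 1 array left out, the lone array of its group was assumed to vary like the others, and the counts ranged from 1 to 6, 5 to 16 and 2 to 12. The median member differences then ranged from -0.052 to -0.027, -0.016 to 0.012 and -0.054 to 0.016.

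Against siNTC, the median member change among genes above background was -0.367 for siTET1, -0.491 for siTET2, -0.434 for siTET3 and -0.448 for their mean. It was -0.380 for siTET2 and -0.378 for the mean with a gene's clusters averaged, and -0.354 for siTET3 after quantile normalization. With 1 array left out it ranged from -0.400 to -0.319 (siTET1), -0.467 to -0.363 (siTET2), -0.433 to -0.370 (siTET3) and -0.423 to -0.348 (mean). The unlisted interval genes moved from 0.004 to 0.053 after quantile normalization and to -0.091 above background (-0.022 to 0.021 with 1 array left out), and the flanking genes ranged from -0.297 to -0.272. The 64 partner genes called ranged from 54 to 64 with 1 array left out and from 59 to 67 under the other alternatives, and the TET targets passed in all 3 depletions throughout. Quantile normalization turned the sign of 1 member, PLCB2, and of 6 partner genes. No change is given above for any of these 6. The causes of these changes were not tested.

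The deviations of replicate 1 correlated between groups at -0.043 to 0.238, so the numbers were not taken to pair the samples. With the replicate number as a block, 3, 10 and 10 members were called, RTF1 between siTET3 and siTET1 lost its call (adjusted p = 0.0529, with 0.0159 to 0.206 over all alternatives), and no other listed call did. The mean of the depletions was not fitted on 4 arrays, since it needs all groups. With 2 arrays per group, members near background (TRPM1, FMN1, CHRM5, NUTM1, ACTC1, FSIP1, PLCB2 and DLL4) gave no readable change.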
